A study of Mus musculus with 8 samples.

Results

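Translation initiation and elongation factors load messenger RNA onto the ribosome and drive the steps by which a protein chain grows, and this account follows their genes in T cells taken from grafts. The genes were chosen by name alone. They are those whose symbol begins with Eif or Eef and a digit, on a probe set annotated with exactly 1 symbol, and the probe set with the highest mean stood for the gene. This gave 60 of 18820 genes, 49 named as initiation factors and 11 as elongation factors, from 73 probe sets. A further 11 protein-coding genes with such names, among them Eif4g1, Eif2s1, Eif1 and Eif3g, were not analysed here.

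RNA was measured on 8 arrays, 1 per sample, in CD3-positive T cells isolated from grafts on day 30. All hosts were wild-type CD1 mice, an outbred strain, carrying tissue derived from human embryonic stem cells, and neither age nor sex of the hosts is stated. The 4 rejecting samples came from hosts left untreated, and the 4 tolerant samples from hosts injected with antibodies against CD4, CD8 and CD40L. Nothing says that the samples of a group came from separate mice, so every p-value rests on a spread between samples that may be technical alone.

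In eukaryotes the eIF4F complex binds the cap of the messenger RNA and unwinds it, eIF2 delivers the initiator transfer RNA, and eIF3 holds the small ribosomal subunit in the initiation complex. After the subunits join, eEF1A brings each aminoacyl-tRNA to the ribosome and eEF2 moves the ribosome along by a codon. T cells that are activated raise protein synthesis, and signalling through mTORC1 relieves the 4E-binding proteins' hold on the cap-binding protein.

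Signal differed between arrays of low and high number in both groups, so values are given for arrays numbered 3 and 4 and arrays numbered 1 and 2 apart, each set holding 2 rejecting and 2 tolerant samples. Values are log2 RMA values. A background line was set on each array from 1182 olfactory and vomeronasal receptor probe sets, which T cells should leave silent, at their 99th percentile. It lay between 0.99 and 1.35. Of all genes, 9.12% to 16.3% lay above the line on the arrays numbered 3 and 4, and 2.52% to 5.57% on those numbered 1 and 2. Of 13 T cell markers 9 were measured, and Cd3e, Cd5 and Cd8b1 exceeded the line on all 4 arrays numbered 3 and 4, while Cd3d and Cd247 did so on 0 of 8.

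Eef1a1 and Eef2 stood well above the line on the arrays numbered 3 and 4 of both groups. Eef1a1 encodes the common form of eEF1A, and Eef2 encodes the translocase. The sequences around their annotated starts are shown because both hold a TATAA motif, before the start in Eef2 and after it in Eef1a1. Whether either motif serves as a TATA box was not tested. Eif4ebp2 and Eif3d are shown as genes above the line whose promoter windows hold no such motif on the sense strand. Each stretch runs from 70 bases before the RefSeq start to 30 bases after it on the sense strand in GRCm38.p6. The motif is in capitals. These 4 genes were chosen after their values were seen. Eef1a1 lies at chr9:78481695-78481794 on the minus strand, Eef2 at chr10:81176561-81176660 on the plus strand, Eif4ebp2 at chr10:61452640-61452739 on the minus strand and Eif3d at chr15:77970795-77970894 on the minus strand.
Eef1a1: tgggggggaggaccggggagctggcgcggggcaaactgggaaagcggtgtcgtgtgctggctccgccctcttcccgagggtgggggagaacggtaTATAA
Eef2: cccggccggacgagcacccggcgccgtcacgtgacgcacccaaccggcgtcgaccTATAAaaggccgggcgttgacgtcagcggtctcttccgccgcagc
Eif4ebp2: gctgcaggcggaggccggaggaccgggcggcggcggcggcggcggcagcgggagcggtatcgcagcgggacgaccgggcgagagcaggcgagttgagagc
Eif3d: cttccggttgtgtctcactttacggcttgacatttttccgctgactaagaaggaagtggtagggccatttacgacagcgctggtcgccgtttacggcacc

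The motif begins at position -15 in Eef2 and at position 26 in Eef1a1, counted from the annotated start as position 1 with no position 0. A window in the table spans 250 bases before the start to 50 after, and 47 of the genes have one. Of these 47, 6 (12.8%) held TATAA on the sense strand (Eef1a1, Eef2, Eif2ak3, Eif3b, Eif3f and Eif4a3l1) and 7 (14.9%) on either strand. Over the 27025 genes of the table the shares were 20.0% and 28.0%. A match describes the letters of the window only.

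**Figure D1:**
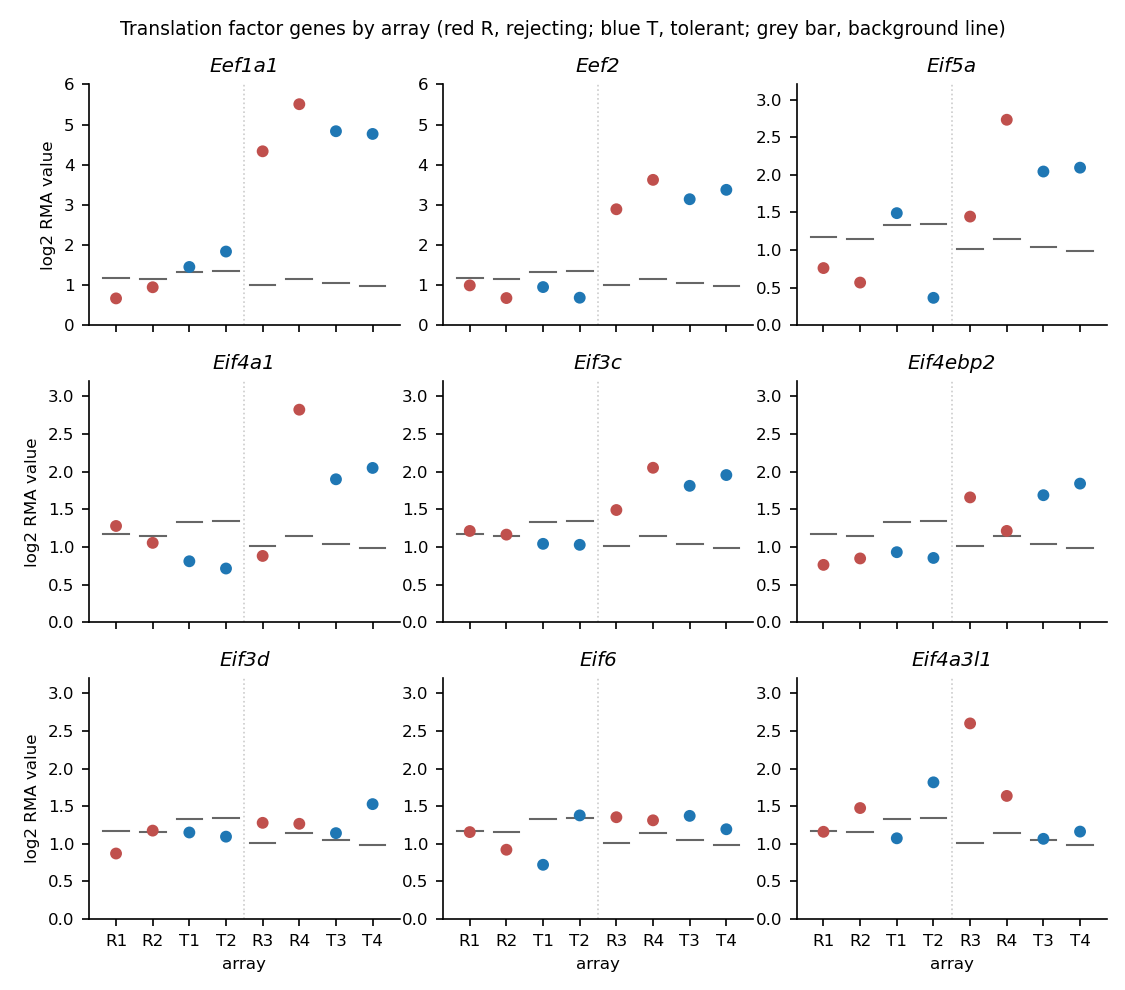
Each panel plots 1 gene's log2 RMA value (y axis) on the 8 arrays (x axis; R rejecting in red, T tolerant in blue, with the array number), and each grey bar is that array's background line. Eef1a1 and Eef2 stand between 2.89 and 5.51 on the 4 arrays numbered 3 and 4 in both groups, and the other panels lie nearer the line; the y axis of the Eef1a1 and Eef2 panels is longer.

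Among the elongation factors, Eef1a1 (probe set 10595183) read 4.34 and 5.51 in rejecting samples 3 and 4 and 4.84 and 4.77 in tolerant samples 3 and 4. It read 0.67 and 0.95 in rejecting samples 1 and 2 and 1.45 and 1.84 in tolerant samples 1 and 2. The groups overlapped on the arrays numbered 3 and 4, where the highest and the lowest array were both rejecting, and did not overlap on those numbered 1 and 2. The difference, tolerant minus rejecting, was -0.12 with a standard error of 0.37 on arrays 3 and 4 (95% interval -1.05 to 0.81, limma adjusted p = 0.951). On arrays 1 and 2 it was 0.84 (interval 0.40 to 1.27, limma adjusted p = 0.936), with the tolerant values above the line and the rejecting values below it. The difference between those differences did not pass (interaction -0.96, limma adjusted p = 0.721). In bulk RNA, fewer cells of a type and less RNA per cell cannot be told apart, here and in every comparison that follows.

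Eef2 (10364990) read 2.89 and 3.62 in rejecting samples 3 and 4 and 3.14 and 3.38 in tolerant samples 3 and 4. On the arrays numbered 1 and 2 it read 1.00 and 0.68 in the rejecting and 0.95 and 0.69 in the tolerant samples, all below the line. The tolerant values lay between the rejecting ones on arrays 3 and 4. The difference there was 0.00063 with a standard error of 0.25 (interval -0.63 to 0.64, limma adjusted p = 0.999). A second probe set, 10374348, read 1.17 and 1.39 on the rejecting and 1.00 and 1.62 on the tolerant arrays 3 and 4. In that probe set the tolerant values enclosed the rejecting ones. Over the 8 arrays the mean of Eef1a1 was 2.87 ± 2.42 for the rejecting and 3.22 ± 1.83 for the tolerant group (SD, n = 4), and that of Eef2 was 2.05 ± 1.43 and 2.04 ± 1.41 (SD, n = 4). Within each group the values of arrays 3 and 4 lay above those of arrays 1 and 2, which made the standard deviations large.

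Eef1a2, the form of eEF1A used by muscle and neurons, stayed near the line, between 0.93 and 1.36 on the 8 arrays. Its difference on arrays 3 and 4 was 0.18 (limma adjusted p = 0.801). Of 6 measured markers of muscle and neurons, 4 exceeded the line on 0 of 8 arrays, and Ckm and Snap25 on 3 and 1.

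The guanine nucleotide exchange factor eEF1B, which recharges eEF1A with GTP, was measured through Eef1b2, Eef1d and Eef1g, together with Eef1e1, a component of the complex of tRNA synthetases. Eef1b2 (10346867), which encodes an exchange subunit, read 0.60, 0.62, 0.78 and 0.95 in the rejecting and 0.60, 0.29, 0.43 and 0.59 in the tolerant samples 1 to 4. All 8 values were below the line. Its difference was -0.26 with a standard error of 0.11 over 8 arrays (interval -0.52 to -0.0021, limma adjusted p = 1.00) and -0.36 on arrays 3 and 4 (interval -0.67 to -0.046, limma adjusted p = 0.620). It was the only member with an unadjusted p under 0.05 over the 8 arrays (0.0485). Eef1g (10608657) read 0.99 and 1.66 on the rejecting and 1.07 and 1.03 on the tolerant arrays 3 and 4, above the line on 3 of those 4 arrays. Its rejecting values enclosed the tolerant ones, and its difference there was -0.28 (limma adjusted p = 0.812). A second probe set of Eef1g, 10461365, read 1.13 and 1.11 on the rejecting and 0.97 and 0.70 on the tolerant arrays 3 and 4. Its groups did not overlap there (difference -0.28, limma adjusted p = 0.702). Eef1d and Eef1e1 lay below the line on all 8 arrays.

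Eef2k, the kinase that inhibits eEF2, lay between 0.45 and 0.83 and below the line on all 8 arrays. The methyltransferases of eEF1A were below the line on all 8 arrays too. Eef1akmt1 (10420385) read 0.66 and 0.72 on the rejecting and 0.35 and 0.37 on the tolerant arrays 3 and 4, a difference of -0.33 (limma adjusted p = 0.571). On the arrays numbered 1 and 2 its groups overlapped.

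Among the initiation factors, eIF4A is the helicase that unwinds the leader of the message. Eif4a1 (10466402) read 0.88 and 2.82 in rejecting samples 3 and 4 and 1.90 and 2.05 in tolerant samples 3 and 4. On arrays 1 and 2 it read 1.28 and 1.05 in the rejecting and 0.81 and 0.71 in the tolerant samples. The gap of 1.94 between the rejecting arrays 3 and 4 enclosed both tolerant values, and rejecting array 3 lay below its line. The difference on arrays 3 and 4 was 0.12 with a standard error of 0.60 (interval -1.38 to 1.62, limma adjusted p = 0.969). With each of these 4 arrays left out in turn it ran from -0.85, without rejecting replicate 3, to 1.09, without rejecting replicate 4. The other probe sets of the gene, 10346780 and 10387545, gave 1.04 and 0.89 in rejecting sample 3 and 2.41 and 2.19 in rejecting sample 4, so the gap was seen in all 3.

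The rest of the cap-binding machinery was near or under the line. Eif4e, the cap-binding protein itself, lay between 0.18 and 0.75 on the 8 arrays, below the line on all of them. Eif4g2, a relative of the eIF4G scaffold that works without the cap-binding protein, read 0.67 and 1.18 on the rejecting and 1.27 and 1.29 on the tolerant arrays 3 and 4. Its groups did not overlap there, with a difference of 0.35 (limma adjusted p = 0.726), while rejecting array 3 was below the line. Eif4b, Eif4e1b, Eif4e2, Eif4e3, Eif4g3 and Eif4h were above the line on 1 to 3 of the arrays numbered 3 and 4. A second probe set of Eif4e1b, 10405334, was above it on 0 of those arrays. That probe set read 1.49 and 1.34 on the rejecting and 0.57 and 0.26 on the tolerant arrays 1 and 2. Its difference there was -0.998 (limma adjusted p = 0.936), against 0.12 for the probe set that stood for the gene. Eif4a2, Eif4a3 and Eif4enif1 were above the line on 0 of the 8 arrays.

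Eif4a3l1 (10542369), a gene closely related to the exon junction helicase Eif4a3, had the largest difference of the 60 genes on arrays 3 and 4. It read 2.60 and 1.64 in rejecting samples 3 and 4 and 1.07 and 1.16 in tolerant samples 3 and 4, all above the line. On arrays 1 and 2 it read 1.16 and 1.48 in the rejecting and 1.07 and 1.82 in the tolerant samples. The groups did not overlap on the former and overlapped on the latter. The difference on arrays 3 and 4 was -1.003 with a standard error of 0.31 (interval -1.78 to -0.23, limma adjusted p = 0.570), and it did not pass. With 1 array left out at a time or another setting it ran from -1.485 (without rejecting replicate 4) to -0.52 (without rejecting replicate 3) there, with limma adjusted p between 0.0594 and 0.920. Probe sets annotated with both Eif4a3l1 and Eif4a3 were not used.

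The 4E-binding proteins hold the cap-binding protein until mTORC1 phosphorylates them. Eif4ebp2 (10369474) read 1.66 and 1.21 on the rejecting and 1.69 and 1.84 on the tolerant arrays 3 and 4, above the line on all 4. It read 0.76 and 0.85 on the rejecting and 0.93 and 0.85 on the tolerant arrays 1 and 2. The groups did not overlap on arrays 3 and 4. The tolerant mean was higher in both sets of arrays, by 0.33 on arrays 3 and 4 (interval -0.11 to 0.77, limma adjusted p = 0.728) and by 0.09 on arrays 1 and 2 (limma adjusted p = 0.973), where all values were below the line. Eif4ebp1 lay between 0.32 and 0.85 on the 8 arrays and below the line on all of them.

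The eIF2 group holds subunits of eIF2 and of eIF2B, its exchange factor, with Eif2a and Eif2d, which serve other ways of starting. Of its 10 measured genes, 9 were below the line on all 8 arrays. Eif2s3x, the X-linked gamma subunit, was above it only in tolerant sample 4, at 1.12. Its Y-linked copy Eif2s3y read 0.62, 0.82, -0.01 and 0.11 in rejecting samples 1 to 4 and 0.59, 0.76, 0.10 and -0.14 in tolerant samples 1 to 4. All 4 values on arrays 1 and 2 were above those on arrays 3 and 4, a pattern of 1 in the 60 members (1.67%) and of 5.90% of all genes, and all 8 values were below the line. Eif2b5, the catalytic subunit of eIF2B, lay between 0.34 and 0.68. Eif2b1 had a difference of -0.23 over the 8 arrays (limma adjusted p = 1.00).

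Kinases that phosphorylate eIF2 slow initiation under stress. Eif2ak1, Eif2ak2, Eif2ak3 and Eif2ak4, which respond to haem shortage, double-stranded RNA, unfolded protein and amino acid shortage, lay between 0.22 and 0.76 on the 8 arrays, below the line on each. Their differences on arrays 3 and 4 were -0.14, 0.11, 0.11 and -0.18 (limma adjusted p from 0.755 to 0.849). Values under the line do not show that these transcripts were the same in both groups.

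Of 11 measured subunits of eIF3, Eif3c and Eif3d lay above the line on all 4 arrays numbered 3 and 4. Eif3c (10557432) read 1.49 and 2.05 on the rejecting and 1.81 and 1.96 on the tolerant arrays 3 and 4, and 1.21, 1.16, 1.04 and 1.03 in rejecting 1 and 2 and tolerant 1 and 2. Again the rejecting values of arrays 3 and 4 enclosed the tolerant ones, with a difference of 0.11 (interval -0.39 to 0.62, limma adjusted p = 0.912). Other probe sets of Eif3c did not all give this picture. Probe set 10513822 lay above the line on 0 of those 4 arrays, with a difference of -0.28. Probe set 10567941 lay above it on 3, with a difference of 0.02. Eif3d (10430265) read 1.28 and 1.27 on the rejecting and 1.14 and 1.53 on the tolerant arrays 3 and 4, a difference of 0.06 (interval -0.32 to 0.45, limma adjusted p = 0.938). Eif3f, Eif3e and Eif3k had differences of 0.37, 0.28 and -0.22 there, of which Eif3f was above the line in tolerant sample 4 only and the others on 0 of those 4 arrays. None of these passed, with limma adjusted p from 0.709 to 0.772. Eif3a, the largest subunit, lay between 0.31 and 0.69 on the 8 arrays.

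Eif5a and Eif6 are named as initiation factors, although eIF5A mainly helps elongation and termination and eIF6 keeps the large ribosomal subunit from joining too early. Eif5a (10387733) read 1.45 and 2.73 on the rejecting and 2.04 and 2.10 on the tolerant arrays 3 and 4, and 0.76, 0.57, 1.49 and 0.37 in rejecting 1 and 2 and tolerant 1 and 2. Its tolerant values lay between the rejecting ones on arrays 3 and 4, with a difference of -0.02 (interval -1.03 to 0.99, limma adjusted p = 0.994). A second probe set, 10523058, read 0.89 and 2.34 on the rejecting and 0.76 and 1.82 on the tolerant arrays 3 and 4, and so did not give tolerant sample 3 the same place. Eif6 (10488929) read 1.35 and 1.31 on the rejecting and 1.37 and 1.19 on the tolerant arrays 3 and 4, a difference of -0.05 (interval -0.34 to 0.24, limma adjusted p = 0.934). Of the factors for start-codon choice and subunit joining, Eif5, Eif5b, Eif1a, Eif1ad and Eif1ax were below the line on all 8 arrays. Eif1b was above it only in tolerant sample 1, at 1.79.

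**Figure D2:**
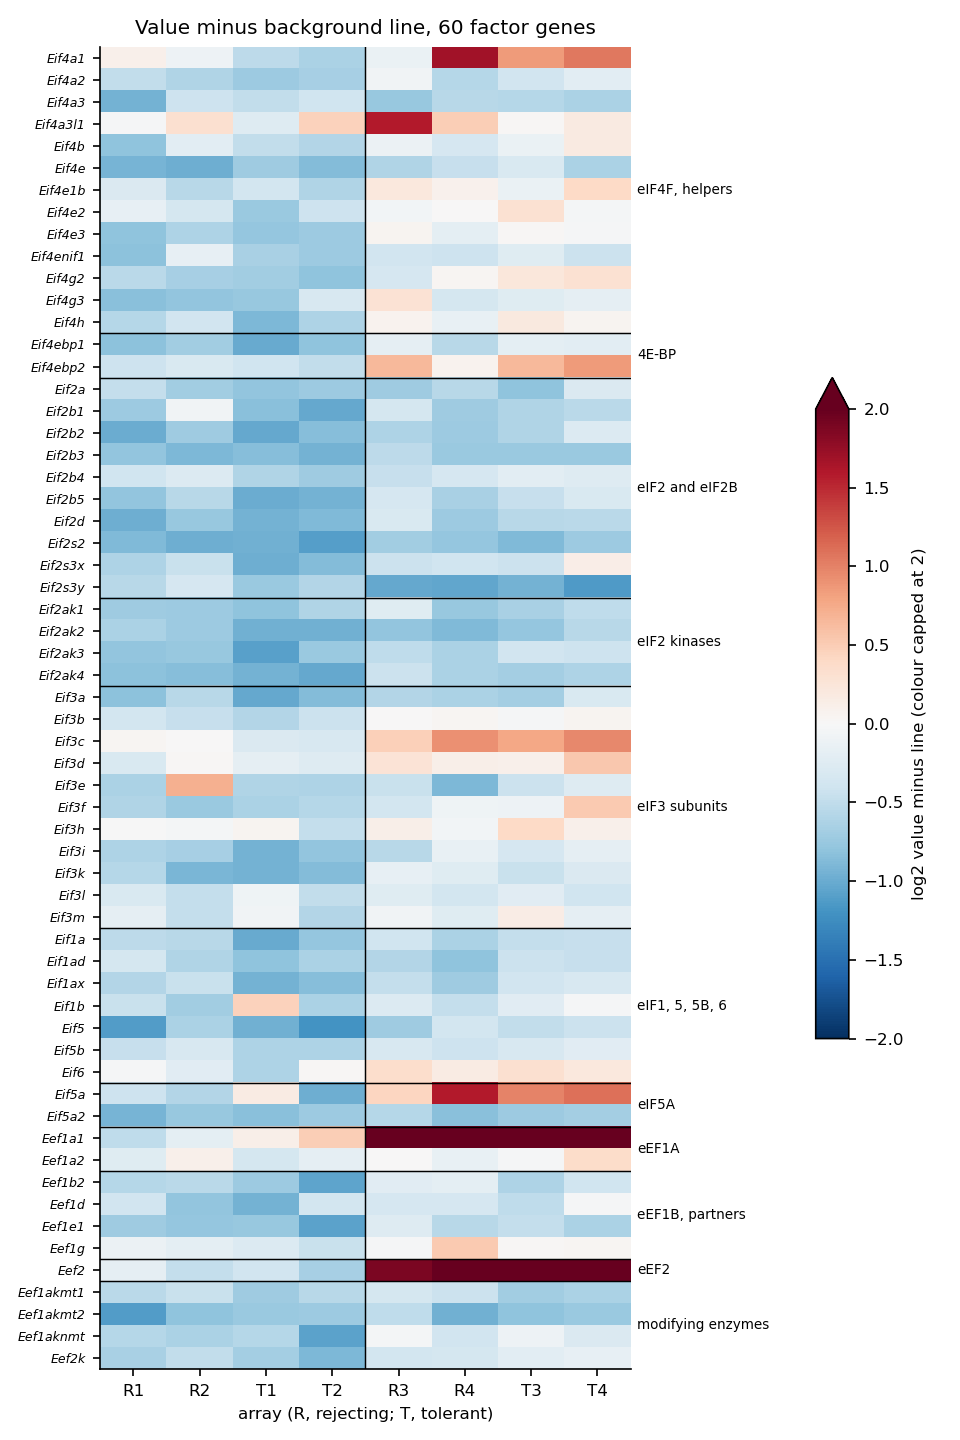
Each row is 1 of the 60 genes, grouped by role, each column an array (R rejecting, T tolerant), and the colour is the log2 value minus that array's background line, capped at 2. Eef1a1 and Eef2 are strongly above the line (red) on the arrays numbered 3 and 4 of both groups, and 35 genes are above the line on no array.

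Counted over the 60 genes, 8 lay above the line on all 4 arrays numbered 3 and 4. They were Eef1a1, Eef2, Eif3c, Eif3d, Eif4a3l1, Eif4ebp2, Eif5a and Eif6, or 13.3% of the members, against 6.52% of all genes. Another 15 were above it on 1 to 3 of those arrays and 35 on 0 of the 8 arrays, counts that were not made over all genes. On all 4 arrays numbered 1 and 2, 0 members were above it, against 197 of all 18820 genes. Per array, 14 to 19 members were above the line on arrays 3 and 4 and 2 to 5 on arrays 1 and 2. In 10 genes (16.7%, against 8.80% of all genes) every value of arrays 3 and 4 exceeded every value of arrays 1 and 2. These were Eef1a1, Eef2, Eif3b, Eif3c, Eif3k, Eif4e3, Eif4ebp1, Eif4ebp2, Eif4g2 and Eif4h. The counts are a description and were not tested.

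**Figure D3:**
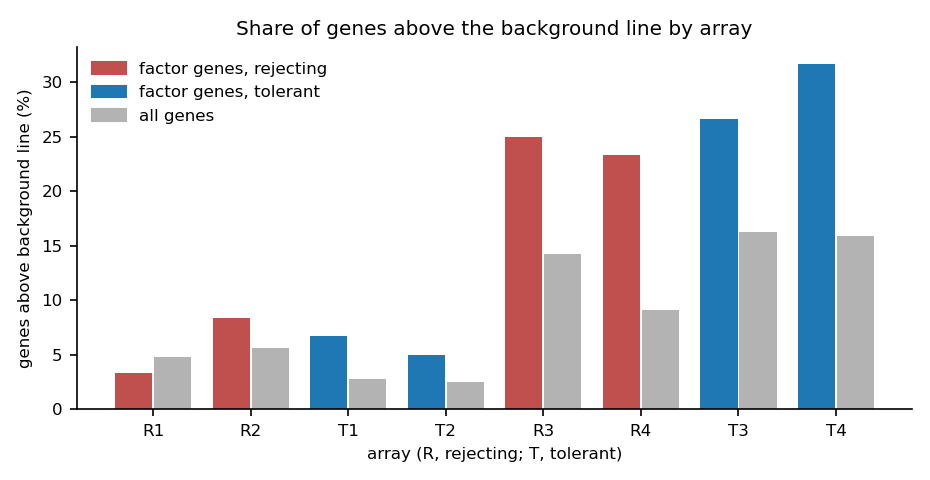
Coloured bars give the percentage of the 60 factor genes above the background line on each array (red rejecting, blue tolerant) and grey bars the percentage of all 18820 genes. The factor genes reach 23.3% to 31.7% on the arrays numbered 3 and 4 of both groups and 3.33% to 8.33% on those numbered 1 and 2.

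Tolerant and rejecting T cells were compared to ask whether expression of these factors differs between them, and 0 of the 60 genes passed the test. Over the 8 arrays, at a limma adjusted p under 0.05, 0 of all 21218 probe sets (0%) passed. Unadjusted p was under 0.05 in 613 (2.89%), against 1 of the 60 members. That fit has no term for the array set, so the shift between the sets entered the spread against which differences were judged. With the array set as a block, unadjusted p was under 0.05 in 1187 probe sets (5.59%) and 1 member. Again 0 probe sets passed, with a lowest limma adjusted p of 0.345, and of 0.849 among the members. Of the members, 30 were higher and 30 lower in tolerant samples, with 50.2% of all genes higher. The median difference was 0.0028 for initiation factors and -0.0079 for elongation factors, beside 0.00054 for all genes. All 60 differences were smaller than 0.5 in size. Groups that did not overlap, tolerant higher or tolerant lower, were found in 0 and 0 members, against 1.08% and 1.13% of all genes.

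On the arrays numbered 3 and 4, where most of the signal lay, 11 probe sets (0.0518%) passed and 0 of them belonged to these genes. At an unadjusted p under 0.05 there were 3 members (Eif4a3l1, Eef1akmt1 and Eef1b2, all lower in tolerant samples), or 5% against 7.21% of all probe sets. Of the 49 initiation factors, 30 were higher and 19 lower, with a median difference of 0.034. Of the 11 elongation factors, 4 were higher and 7 lower, with a median of -0.095, beside -0.0064 for all genes, of which 48.3% were higher. Without rejecting replicate 4 the elongation median was 0.06, so its sign rested on that array. The groups did not overlap with tolerant higher in 13 members (21.7%, against 19.6% of all genes) and with tolerant lower in 8 (13.3%, against 20%). In 49 of the 60 genes the larger of the gaps within the 2 groups exceeded the difference between the group means. For the rejecting gap alone the count was 36. Neither count was made over all genes, so they are not read as a trait of these genes.

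**Figure D4:**
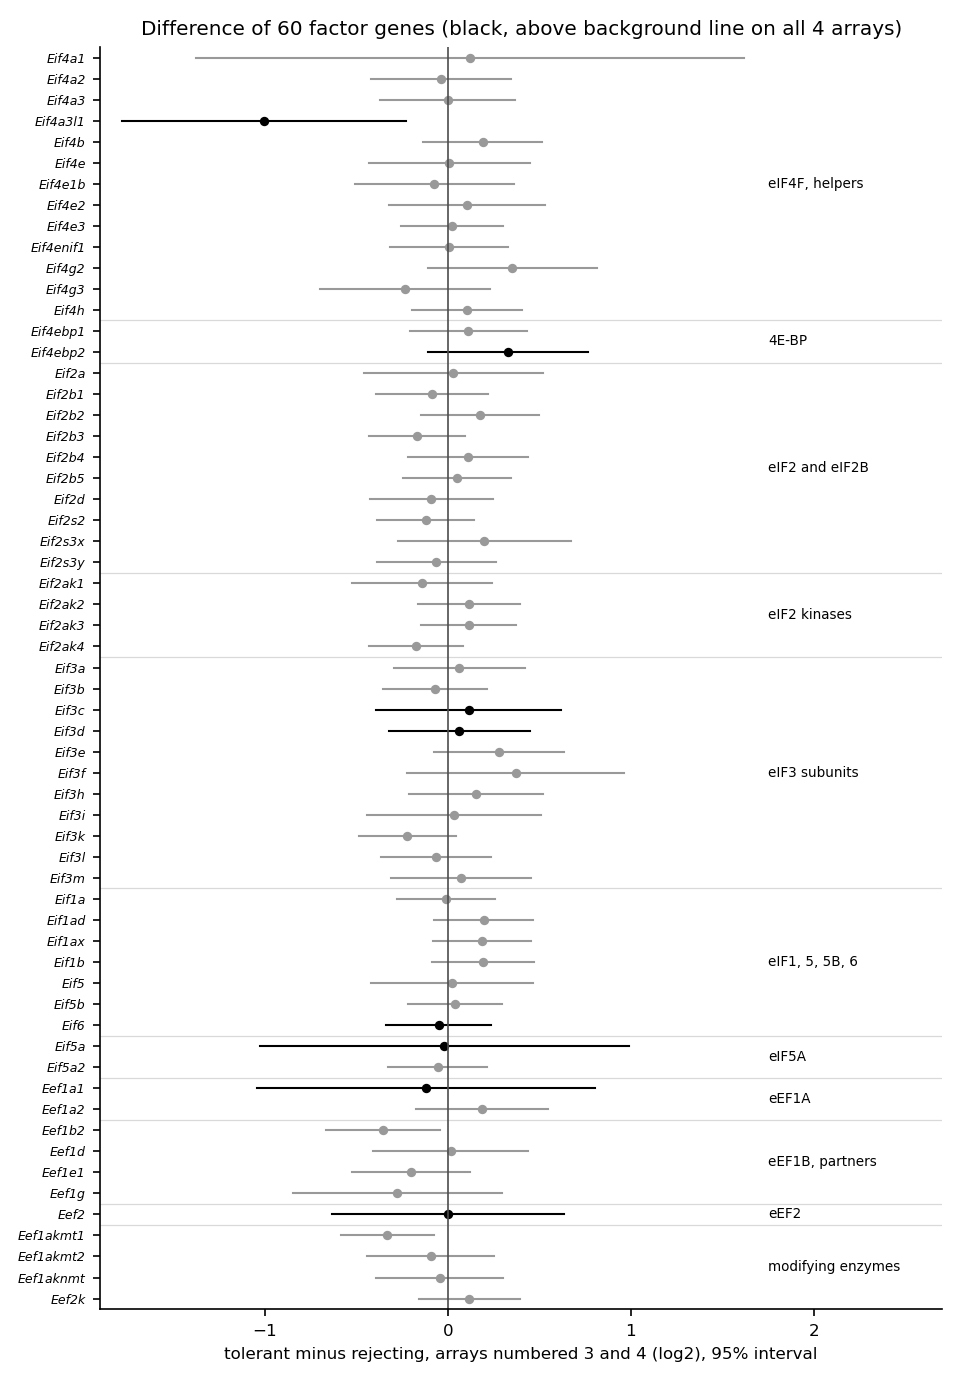
Points give the difference, tolerant minus rejecting, on the arrays numbered 3 and 4 (x axis, log2) for each of the 60 genes (y axis, by role), with bars for limma's 95% interval; black marks genes above the background line on all 4 arrays. Differences run from -1.003 for Eif4a3l1 to 0.37 for Eif3f, and 0 of them passed the test.

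By the probe sets that stood for the genes, rejecting sample 4 was the highest of the set for Eef1a1, Eef2, Eif5a, Eif4a1 and Eif3c. Fewer of all genes lay above the line on it (9.12%) than on the other arrays of the set. Rejecting sample 3 was the lowest of the set for the same 5 genes, which were picked out after their values were seen. Of the 8 genes above the line on all 4 arrays, rejecting sample 4 exceeded rejecting sample 3 in 4.

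Markers of some cell types were higher in tolerant samples on the arrays numbered 3 and 4, where 48.3% of all genes were higher. Kidney tubule markers were higher in tolerant samples in 7 of 7 genes, with a summed log2 level of 5.81 to 6.15 in rejecting and 15.5 to 19.3 in tolerant samples, and fibroblast markers in 6 of 6, with 8.81 to 10.4 and 14.9 to 15.5. Macrophage markers were higher in 7 of 7, with 3.97 to 8.89 and 12.4 to 14.6. T cell markers were higher in 7 of 9, with 9.13 to 10.1 and 10.4 to 13.9. Summed levels did not overlap between the groups for any of these 4 lists. Of all genes taken singly, 19.6% did not overlap with tolerant higher. Endothelial markers were higher in 3 of 5 and epithelial markers in 4 of 4, also without overlap of the sums. B cell markers were higher in 1 of 3, muscle and neuron markers in 3 of 6 and erythroid markers in 1 of 1, and their sums overlapped. Slc12a3 and Calb1, 2 of the 7 kidney tubule markers, passed the test on arrays 3 and 4 (limma adjusted p = 0.0359 and 0.0440). Of all probe sets 0.0518% passed. On arrays 1 and 2, kidney tubule markers were higher in 2 of 7, fibroblast in 3 of 6, macrophage in 6 of 7 and T cell in 5 of 9. Endothelial markers were higher there in 3 of 5 and epithelial in 1 of 4, against 49.5% of all genes. The sums of these lists overlapped there. The part of the markers in the values of the translation factors was not tested.

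Arrays 1 and 2 gave 0 probe sets past limma's test (0%). Unadjusted p was under 0.05 in 1093 (5.15%) and in 4 of the 60 members, Eef1a1, Eef1akmt2, Eif4a1 and Eif4g3. The medians were 0.024 for initiation and -0.016 for elongation factors, beside -0.0022 for all genes. The groups did not overlap with tolerant higher in 12 members (20%, against 17.2%) and tolerant lower in 7 (11.7%, against 17%). By probe set 10466402, Eif4a1 went the other way from the arrays numbered 3 and 4, with a difference of -0.40 (limma adjusted p = 0.936). Probe set 10387545 of the gene gave 0.11 on arrays 3 and 4 and -0.15 on arrays 1 and 2. Probe set 10346780 gave -0.0096 and -0.14, so its sign did not change. The test of whether the differences differed between the sets called 12 probe sets (0.0566%) and 0 of the 60 members. Without rejecting replicate 4, which left 1 rejecting sample in the set, it called 76 probe sets (0.358%), and 1 of them stood for a member, Eif4a1 (difference of the differences 1.499, limma adjusted p = 0.0372).

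Other genes of protein synthesis, in lists written with earlier results of these data known, had 0 members past the test in either direction, on the 8 arrays and in each set. On arrays 3 and 4, 9 of 10 measured genes of mTORC1 and S6 kinase were higher in tolerant samples, against 48.3% of all genes. Their median was 0.14, and 2 of the 10 lay above the line on all 4. On arrays 1 and 2 the split was 5 higher and 5 lower, with a median of -0.015. Deptor, an inhibitor of mTOR, read 0.40 and 0.69 on the rejecting and 1.17 and 1.16 on the tolerant arrays 3 and 4 (difference 0.62, limma adjusted p = 0.362). Tsc1 and Rptor had 0.36 and 0.24. The list holds inhibitors such as Deptor beside parts of the kinase complex, so its count gives no direction for the pathway. Of the mRNA-binding partners of initiation factors 8 of 11 were higher, with a median of 0.12, against 6 of 11 and 0.0028 on arrays 1 and 2. On arrays 3 and 4 Larp1, which binds the start of messages for ribosomal proteins and elongation factors, read 1.38 and 1.42 on the rejecting and 2.08 and 1.91 on the tolerant arrays 3 and 4 (difference 0.59, limma adjusted p = 0.274). Pdcd4, an inhibitor of eIF4A, had a difference of 0.78 (limma adjusted p = 0.366) and lay above the line in tolerant sample 4 only.

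For the remaining lists the counts and the named genes' differences are those of arrays 3 and 4, followed by the counts of arrays 1 and 2. Release and recycling factors had 7 of 9 higher and a median of 0.024, with 0.39 for Gspt1, a release factor, against 3 of 9 and a median of -0.14 on arrays 1 and 2. Cytosolic aminoacyl-tRNA synthetases and their scaffold had 10 of 19 higher and a median of 0.020, with 0.38 for Sars, against 10 of 19 and 0.011. Mitochondrial translation factors had 2 of 9 higher and a median of -0.065, with -0.42 for Tufm, the mitochondrial counterpart of eEF1A, against 4 of 9 and -0.0033. Targets and phosphatase subunits of the eIF2 stress response had 5 of 8 higher and a median of 0.023, with 0.43 for Ppp1r15b, against 6 of 8 and 0.090. Of these 4 lists, 1 gene, the release list's Pelo, lay above the line on all 4 arrays numbered 3 and 4.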

How the data were processed

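The deposited log2 values cover 35556 probe sets and 8 arrays. Per the submitters' processing notes, the authors used RMA in Affymetrix Expression Console. That method subtracts background and makes the arrays' intensity distributions alike, so a general difference in signal is partly removed. Software versions are not stated, nor is the base of the logarithm, taken as 2 from the range of the values. Symbols came from the platform annotation (21218 probe sets with 1 symbol, 1881 with several, 12457 with none), and 21185 of the 21218 were matched by Entrez identifier to RefSeq's gene table of GRCm38.p6. Promoter sequences are RefSeq's.

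Tests used limma 3.58.1 in R 4.3.3 (linear model, empirical Bayes, 2-sided, Benjamini-Hochberg adjustment over 21218 probe sets, threshold 0.05), and were tested on simulated data. Plots used Python 3.11.15 and matplotlib 3.10.9. Background correction could not be varied from summarised values. The number of arrays limits the precision.

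The genes, lists and tests were chosen with earlier results of these data known. Named were the members above the line on all 4 arrays numbered 3 and 4, the 6 with the smallest unadjusted p over 8 arrays and over arrays 3 and 4, 22 listed factors whatever their values, and up to 3 per other list. Further members are named where a count lists them.

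Same-numbered arrays of opposite groups were checked for pairing by the correlation of their deviations from the group means. It was 0.499, 0.507, 0.410 and 0.599 for numbers 1 to 4, and opposite-group arrays of a set with different numbers correlated as much, by 0.411 to 0.581, so the shared deviation cannot be assigned to the number rather than the set. The main tests of the difference have no block, and fits with the number or the array set as a block were alternatives.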

Additional observations from a re-analysis of the deposited data

Results flagged for a closer look

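In groups of 4 samples, a value was set apart where its gap to the nearest other value was a larger share of the group's range than Dixon's critical value. Of 64 such groups over the named genes, 4 had one, and chance gives about 1 in 20 for independent groups drawn from a single normal distribution. Each group here mixes both sets of arrays, and all share the same arrays, so that rate need not apply. Eef1g was highest in rejecting sample 4 at 1.66, the others lying between 0.95 and 1.05. Eif3d was highest in tolerant sample 4 at 1.53, the others lying between 1.10 and 1.15. Eif3e was lowest in tolerant sample 3 at 0.62, with the others between 0.73 and 0.74, all below the background line. Eif4a3l1 was highest in tolerant sample 2 at 1.82, the others lying between 1.07 and 1.16.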

How the results depend on the processing

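The number of the 60 genes called in the comparisons of tolerant and rejecting samples was 0 under every alternative run. With the filter on dim probe sets, only 18, 18 and 3 of the 60 were tested on the 8 arrays, arrays 3 and 4 and arrays 1 and 2. The number of all probe sets called stayed at 0 over the 8 arrays. On arrays 3 and 4 it went from 11 to 5 with a filter on dim probe sets, to 0 with all probe sets tested, to 26 with trend and robust moderation, and from 0 (without tolerant replicate 3 or 4) to 48 (without rejecting replicate 4) with an array left out. On arrays 1 and 2 it ran from 0 to 2, the latter without tolerant replicate 2. The interaction's 12 went to 0 with quantile normalization again and with all probe sets, and from 0 (without tolerant replicate 3) to 76 (without rejecting replicate 4), with 2 to 20 without each of the other arrays. With the replicate number as a block, 0, 8 and 0 probe sets were called on the 8 arrays, arrays 3 and 4 and arrays 1 and 2, and 0 of the 60 genes. The lowest limma adjusted p of a member under the block was 0.907, 0.498 and 0.150. The elongation median on arrays 3 and 4 was -0.054 after quantile normalization again and -0.077 after centring, and -0.15 to 0.060 with an array left out. It ran from -0.14 to 0.074 over the 8 arrays and from -0.099 to 0.066 on arrays 1 and 2, where averaging the probe sets per gene gave 0.030. The initiation median ran from -0.018 to 0.045 over the 8 arrays, from 0.022 to 0.066 on arrays 3 and 4, and from 0.00074 to 0.042 on arrays 1 and 2. With the background line at the 95th percentile, 25 in place of 8 genes lay above it on all 4 arrays numbered 3 and 4. The count at that percentile was not made over all genes, so it is not read as a trait of these genes. The cause of these changes was not tested. Where leaving out an array left 1 sample in a group of a set, that sample was assumed to vary like the others.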

Other observations

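Pabpc1, which binds the poly(A) tail and the eIF4G scaffold and was chosen here after its values were seen, followed the sets of arrays as Eef1a1 and Eef2 did. It read 2.97 and 4.11 on the rejecting and 3.53 and 3.63 on the tolerant arrays 3 and 4, and 1.86, 1.503, 1.03 and 1.51 in rejecting 1 and 2 and tolerant 1 and 2. The rejecting values of arrays 3 and 4 enclosed the tolerant ones, and the difference there was 0.04 (limma adjusted p = 0.985).

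Xist, the RNA that silences an X chromosome in female cells, read 1.01 and 0.65 on the rejecting and 2.19 and 2.17 on the tolerant arrays 3 and 4, a difference of 1.35 (limma adjusted p = 0.111). The Y-linked Uty and Kdm5d, like Eif2s3y, lay below the background line on all 8 arrays, and on arrays 1 and 2 Xist did too.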
